A study of Mus musculus with 36 samples.

Results

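The nuclear genome encodes most subunits of the mitochondrial respiratory chain, and these RNAs are described here in RAW 264.7 cells, a macrophage-like mouse cell line. Members were the protein-coding rows of the deposited tables whose symbols start with Nduf, Uqcr, Cox4 to Cox8 or Atp5, and Sdha, Sdhb, Sdhc and Sdhd. Names and no measured value picked the rows, but the set was chosen with earlier results of these data known. The members are 92 of 53465 genes: 38 for complex I, 8 assembly factors of complex I named Ndufaf, 4 for complex II, 8 for complex III, 18 for complex IV and 16 for complex V. The 36 libraries fall into 12 groups of 3, all from wild-type RAW 264.7 cells. One group received solvent, one received lipopolysaccharide (LPS, a bacterial outer-membrane component that activates macrophages) at 10 µg/mL, 5 received melatonin alone at 1 mM, 100 µM, 10 µM, 1 µM or 0.1 µM, and 5 received melatonin at one of these doses 30 min before LPS. All were collected after 12 h of treatment. Whether replicate libraries stem from separate cultures is not in the labels, so every p-value reflects library-to-library spread that may be only technical.

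The respiratory chain carries electrons from NADH (entering at complex I) and succinate (entering at complex II, which is also the succinate dehydrogenase of the tricarboxylic acid cycle) through ubiquinone, complex III and cytochrome c to oxygen at complex IV. Complexes I, III and IV pump protons, and complex V, the ATP synthase, uses the gradient to make ATP. Macrophages given LPS are known to shift from oxidative phosphorylation towards glycolysis, and succinate oxidation by complex II is known to shape their inflammatory output. Complex II is the only one of the 5 complexes whose subunits are all nuclear-encoded, and the table's 13 rows of mitochondrially encoded proteins, all listed at 0 counts, were not analysed here.

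Libraries held 4203313 to 7590271 counts (median 6649254), and all levels are given as CPM (counts scaled to library size, with the TMM method). A count of 0 allows up to 3 counts, or 0.395 to 0.714 CPM, for counting error only. Changes are log2 fold changes ± SE. They come from a quasi-likelihood fit in edgeR to 16988 genes, and a change passed where its Benjamini-Hochberg adjusted p was below 0.05. Summed levels of 10 macrophage markers were 3572.6 to 15999.6 CPM with none at 0, while summed markers of fibroblasts (0 to 9.38 CPM), epithelial cells (0 to 1.67), T cells (0 to 7.32), B cells (0 to 1.36) and muscle (0 to 7.9) were near 0. Replicate 3 of LPS with 1 mM melatonin stood apart. It had the lowest total, the highest TMM factor (1.19) and the highest chi-square per degree of freedom against another library of its group (37.69, where pairs within groups began at 8.95). Replicate 3 of 1 mM melatonin and replicate 1 of 1 µM melatonin also differed from their groups, with summed macrophage markers down to 5173.9 and 4793.6 CPM in those groups. Values without these libraries are given where leaving them out ends a call or moves a value by much.

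Of the 92 members, 86 had enough counts to be tested. The other 6 were Ndufa4l2, Cox7a1, Cox8b, Cox6b2, Cox7b2 and Cox8c, and Cox8c had 0 counts in every library. Among these, Cox7a1 and Cox8b are heart and skeletal muscle isoforms, and Cox6b2, Cox7b2 and Cox8c are testis isoforms. Per transcript length, in the authors' FPKM averaged over the 36 libraries, the highest members of each complex were Ndufa6 (653, complex I), Sdhd (265, complex II), Uqcrb (1132.6, complex III), Cox8a (1671.6, complex IV) and Atp5g3 (802, complex V). The lowest tested members were Ndufb2 (0.353), Sdha (23.8), Uqcr11 (3.73), Cox4i2 (0.422) and Atp5k (0.38), and among assembly factors the range was 2.12 (Ndufaf5) to 36.3 (Ndufaf1). Listed RNA levels of subunits of one complex were thus widely spread, most narrowly in complex II.

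**Figure D1:**
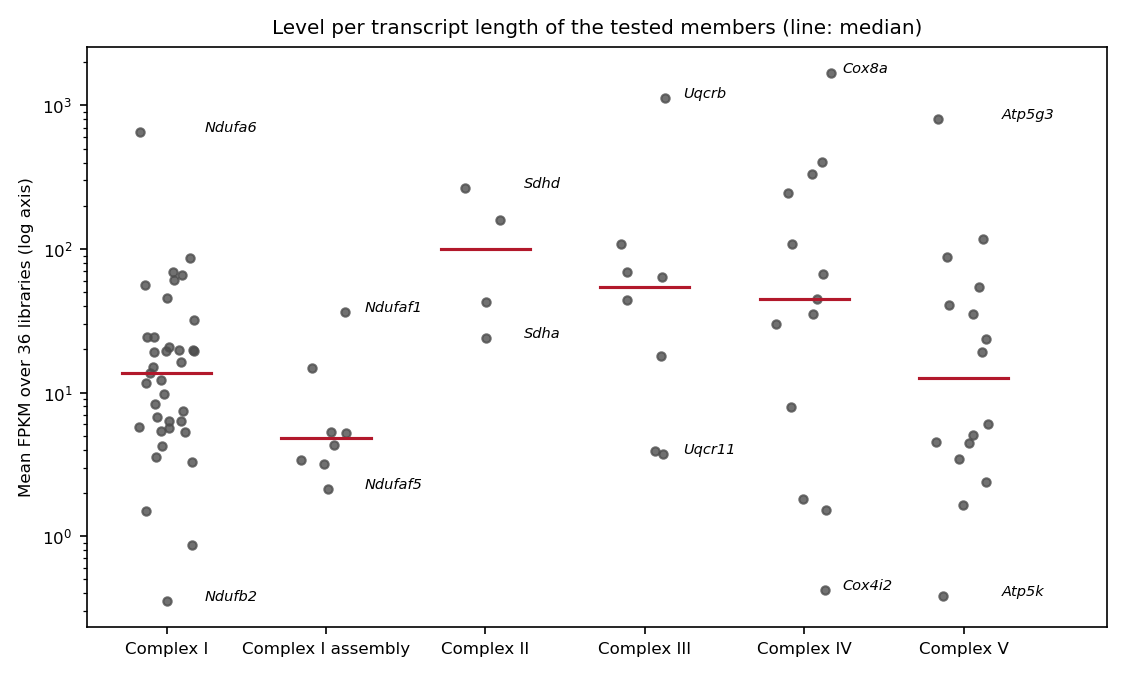
Mean FPKM over the 36 libraries (log axis) of the 86 tested members by complex, 1 point per gene, with the median as a line. Medians were 13.6 for complex I, 4.79 for its assembly factors, 100 for complex II, 54.1 for complex III, 45 for complex IV and 12.7 for complex V, and the labelled genes are the highest and lowest of each.

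Some of these levels are uncertain, since other genes hold parts of the same sequence. How reads were divided between such genes was not measured. Pseudogene rows of any gene took 25.567% to 28.706% of all counts in each library, so the question reaches beyond the examples below. Of the 92 members, 45 shared no stretch of 50 bases with any other annotated gene, 47 shared some, and 2 shared over 50% of such stretches, among them Atp5l (84.8%). The row of Atp5k held 58 counts in all libraries while the row of its processed pseudogene Atp5k-ps2 held 10358, and Ndufab1 held 2499 against 10588 for Ndufab1-ps. Uqcrh held 32588 against 98525 for Uqcrh-ps2. Of the stretches of 50 bases, Ndufab1 shared 311 with Ndufab1-ps, but Atp5k only 2 with Atp5k-ps2. The 1 gene found to share any with Uqcrh was Uqcrh-ps1 (39 stretches), not Uqcrh-ps2. Among members that the results below name often, Sdha, Sdhb, Sdhd, Ndufa6 and Uqcrq shared no such stretch. Others did: Uqcrb shared 43.4%, Ndufa13 28.5%, Cox7a2l 17.7%, Cox4i1 14.7%, Uqcrh 7.8% and Atp5c1 4.0%. Stretches were matched on both strands, so some lie in an overlapping neighbour on the opposite strand and are not copies. For Cox4i1 the 1 other gene was such a neighbour, Emc8. Ndufa13 shared 326 stretches with its neighbour Tssk6 and 17 with a pseudogene. Across the 92 members the share of such stretches, of either kind, and the mean FPKM had a Spearman correlation of -0.08, a description over genes that share libraries.

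The effect of the inflammatory stimulus by itself was read from LPS against solvent. Of the 86 tested members, 15 fell and 0 rose, where 8.09% of all tested genes fell and 8.4% rose (16.5% in either direction). The members' median log2 fold change was -0.30 with 64 of 86 below 0, beside a median of -0.02 over all tested genes. The calls were spread over complex I (5 of 37 subunits), complex II (3 of 4), complex III (3 of 8), complex IV (2 of 13) and complex V (2 of 16), and 0 of 8 complex I assembly factors passed.

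Complex II was the complex with the highest share of called members. Sdhd, a membrane anchor subunit of succinate dehydrogenase on chromosome 9 (50596357 to 50603812, minus strand, mm10), was at 381, 359 and 382 CPM in solvent and at 211, 197 and 187 CPM with LPS. The groups were far apart, and the log2 fold change was -0.92 ± 0.127 (edgeR adjusted p = 3.4e-07), the smallest adjusted p of any member. Sdhb, the iron-sulphur subunit that passes electrons to ubiquinone (chromosome 4, 140961203 to 140979193, plus strand), went from 468, 491 and 447 CPM to 310, 263 and 322 CPM (-0.65 ± 0.185, adjusted p = 0.00973). Sdha, the flavoprotein that oxidises succinate (chromosome 13, 74322254 to 74350280, minus strand), went from 106, 126 and 129 CPM to 69.5, 88.1 and 93.1 CPM (-0.52 ± 0.164, adjusted p = 0.0204). In each of these 3 genes, every LPS library lay below every solvent library. Sdhc, the other membrane anchor, was at 157, 152 and 126 CPM in solvent and 108, 128 and 119 CPM with LPS, groups that overlapped, and it did not pass (-0.30 ± 0.165, adjusted p = 0.244). Without replicate 2 of LPS Sdhb missed the threshold (adjusted p = 0.0684), and Sdha did so without replicate 1 of LPS (0.169) or without replicate 2 or 3 of solvent (0.0792 and 0.0905).

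In complex I, Ndufa6, an accessory subunit of the LYR family (chromosome 15, 82350140 to 82354322, minus strand), was at 623, 536 and 554 CPM in solvent and 334, 300 and 322 CPM with LPS. The groups were well apart (-0.84 ± 0.196, adjusted p = 0.00134). Ndufb5, a membrane-arm subunit, fell from 49.1 ± 8.99 to 25.9 ± 3.05 CPM (SD, n = 3), and the core flavoprotein subunit Ndufv1, which holds the NADH-binding site, from 20.2 ± 7.12 to 7.61 ± 2.1 CPM. Ndufv3, its small neighbour in the flavoprotein part, fell from 56.1 ± 6.35 to 28.4 ± 11.3 CPM. Ndufb5 lies opposite Mrpl47 over 616 bases, and the strand setting of the counting is not given, so reads of the overlap cannot be told apart. The calls of Ndufv1 and Ndufv3 depended on single libraries. Ndufv3 missed the threshold without replicate 1 of LPS (adjusted p = 0.109). Ndufv1 missed it without replicate 1 or 2 of LPS (0.069 and 0.135) or replicate 1 of solvent (0.161).

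Complex III members that fell were Uqcrh, the hinge protein that assists cytochrome c docking, Uqcrfs1, the Rieske iron-sulphur protein, and the small subunit Uqcr10. Uqcrh was at 170, 144 and 143 CPM in solvent and 115, 92.4 and 99.2 CPM with LPS (-0.58 ± 0.152, adjusted p = 0.00467), and with the reads of its pseudogenes added the value was -0.61. Uqcrfs1 fell from 118 ± 9.76 to 76.2 ± 3.02 CPM and Uqcr10 from 34.4 ± 2.45 to 16.7 ± 5.3 CPM. Uqcr10 missed the threshold without replicate 2 or 3 of LPS (adjusted p = 0.0782 and 0.158) or replicate 1 of solvent (0.0756). Uqcrfs1 did so without replicate 1 or 2 of LPS (0.058 and 0.057) or of solvent (0.0573 and 0.0534).

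In complex IV, Cox7a2l, known as a factor that joins complexes III and IV into supercomplexes (chromosome 17, 83501918 to 83517330, minus strand), was at 526, 448 and 493 CPM in solvent and 333, 308 and 363 CPM with LPS. All LPS libraries lay below all solvent libraries (-0.55 ± 0.137, adjusted p = 0.00297). Cox6a1, the isoform of most tissues, was at 213, 238 and 174 CPM in solvent and 174, 156 and 135 CPM with LPS, so the lowest solvent and the highest LPS library met, and its call (-0.43 ± 0.152, adjusted p = 0.0457) was lost without replicate 2 or 3 of LPS (0.113 and 0.233) or replicate 1 or 2 of solvent (0.115 and 0.249). In complex V, Atp5c1, the gamma subunit of the rotor stalk, went from 101, 100 and 84.8 CPM to 52.9, 44.1 and 54.3 CPM (-0.92 ± 0.209, adjusted p = 0.000998). Atp5g3, one of 3 genes for the membrane-rotor subunit c, went from 1991.2, 1925.4 and 1829.9 CPM to 1612.8, 1256 and 1416.2 CPM (-0.42 ± 0.145, adjusted p = 0.0364). Atp5g3 missed the threshold without replicate 2 or 3 of LPS (0.2 and 0.0975) or replicate 1 or 2 of solvent (0.101 and 0.0866). The catalytic beta subunit gene Atp5b stayed at 402, 384 and 387 CPM in solvent and 359, 380 and 364 CPM with LPS and did not pass.

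The 5 melatonin doses give 5 further LPS comparisons, each between LPS with a dose and that dose alone, and with LPS against solvent these 6 comparisons share no library. The members called lower and higher were 9 and 0 with 1 mM (4.75% and 4.87% of all genes), 6 and 4 with 100 µM (7.72% and 9.06%), 7 and 1 with 10 µM (7.65% and 8.44%), 13 and 1 with 1 µM (7.4% and 7.98%) and 6 and 2 with 0.1 µM (7.71% and 7.95%). Without the 2 doubted libraries of melatonin alone, 8 members were called with 1 mM and 12 with 1 µM. Without replicate 3 of LPS with 1 mM melatonin 7 were called there. Shares of all genes called in either direction were 9.62%, 16.8%, 16.1%, 15.4% and 15.7% in the same order. The members' medians were -0.12, -0.13, -0.21, -0.34 and -0.27. Over the 6 comparisons, 27 members fell in at least 1, 5 rose in at least 1, and none did both. These are 31.4% and 5.81% of the tested members, beside 16.2% and 15.9% of all tested genes. No member fell in all 6. Ndufa6, Sdhb and Sdha fell in 5, Sdhd and Cox7a2l in 4, Uqcrh and Ndufb10 in 3, 7 others in 2 and 13 in 1. The 5 members that fell in at least 4 comparisons are 5.81% of those tested, close to the 5.12% of all genes that did so. Of the 86, 22 had a log2 fold change below 0 in all 6 comparisons, and Uqcrq and Ndufaf4 were the 2 above 0 in all 6, which is 25.6% and 2.33% of members beside 17.2% and 16.1% of all genes.

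**Figure D2:**
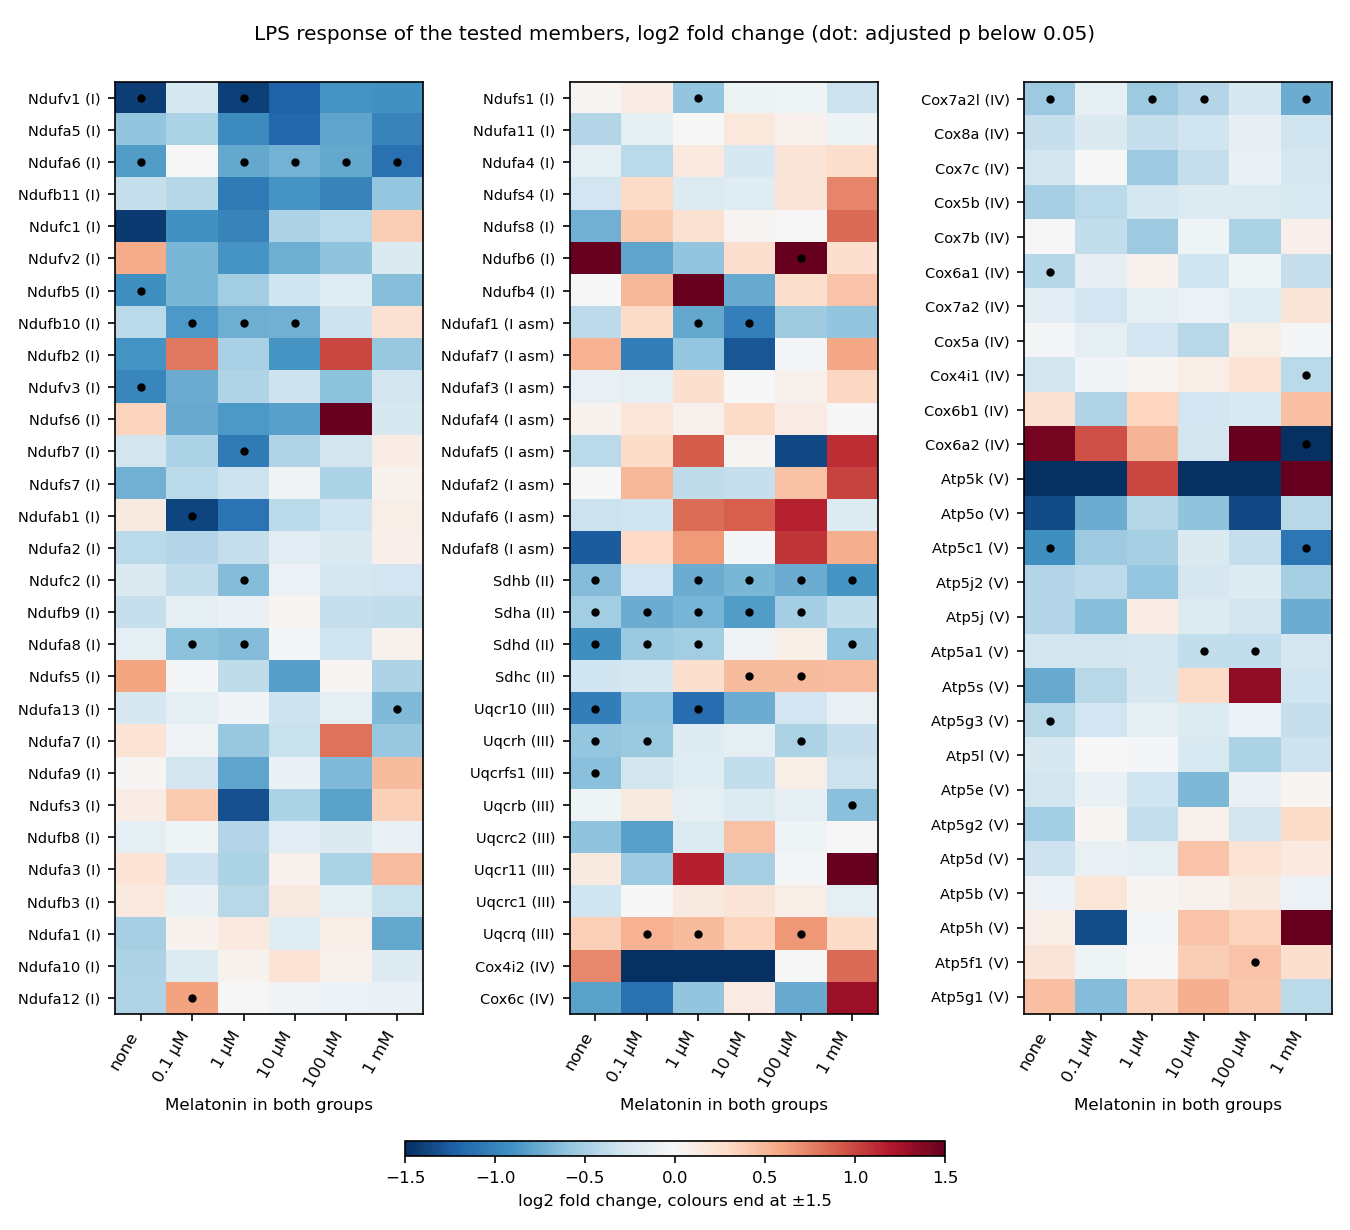
Log2 fold change with LPS of 85 of the 86 tested members (rows, complex in brackets, asm for assembly factors) at 6 melatonin levels that both compared groups shared (columns). Blue is lower and red higher with LPS, colours end at 1.5 in either direction, and dots mark adjusted p below 0.05. Dots gather on Sdhb, Sdha, Sdhd, Ndufa6 and Cox7a2l, and the strong colours without dots belong to low-count members such as Atp5k and Cox4i2.

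With melatonin in both groups, the complex II genes were not all called in the same direction under LPS. Whether melatonin altered their LPS response was tested only at 1 mM, where none of them passed. Sdhb was at 364 to 524 CPM in the 18 libraries without LPS (median 451) and at 106 to 347 CPM in the 18 with LPS (median 290). It was the only member whose 18 libraries with LPS all lay below the 18 without. The share of all tested genes that part in this way was not counted, so this is not read as particular to Sdhb. The log2 fold changes of Sdhb were -0.65 without melatonin and -0.89, -0.75, -0.69, -0.75 and -0.29 from 1 mM down to 0.1 µM, and only the last missed the threshold. The value at 1 mM was -0.55 without replicate 3 of LPS with 1 mM melatonin, a library at 106 CPM beside 283 and 307. Sdha was at 103 to 135 CPM without LPS (median 123) and at 54.1 to 112 CPM with LPS (median 78.9), ranges that met in 1 library at 112 CPM, again replicate 3 of LPS with 1 mM melatonin. It fell in all comparisons except that at 1 mM (-0.37), with values of -0.52, -0.51, -0.84, -0.70 and -0.75 at 0, 100, 10, 1 and 0.1 µM. At 1 mM its libraries were at 83.8, 76.7 and 112 CPM with LPS and 129, 107 and 115 CPM without, so the doubted replicate 3 was the highest with LPS. The call at 100 µM was lost without any of 4 single libraries (adjusted p of 0.0515 to 0.109).

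Sdhd behaved otherwise. With LPS it was at 198 ± 12.1 CPM without melatonin and at 255 ± 35.8, 370 ± 40.3, 289 ± 6.6, 303 ± 17.6 and 314 ± 13.6 CPM with 1 mM, 100, 10, 1 and 0.1 µM melatonin, and the 3 libraries with LPS alone were the lowest of all 36. Its LPS response was 0.09 ± 0.126 with 100 µM melatonin (412, 368 and 331 CPM with LPS against 329, 371 and 343 without) and -0.05 ± 0.126 with 10 µM (282, 295 and 288 against 302, 290 and 306). Neither passed, with adjusted p of 0.702 and 0.856, and in both the libraries overlapped. It fell with 1 mM (-0.58), 1 µM (-0.52) and 0.1 µM (-0.56), and at 1 µM the call was lost without replicate 3 of melatonin alone (adjusted p = 0.0646). Whether its LPS response differed from that without melatonin was tested only at 1 mM, where the difference was 0.33 ± 0.179 and did not pass (adjusted p = 0.449).

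Sdhc was at 112 ± 21.4 CPM with 10 µM melatonin and 155 ± 19.3 CPM with LPS added (0.47 ± 0.165, adjusted p = 0.0441), and at 127 ± 3.1 and 177 ± 8.94 CPM at 100 µM (0.48 ± 0.165, adjusted p = 0.0361), the opposite direction to Sdha and Sdhb. In both cases the LPS libraries lay above those without. With 1 mM, 1 µM and 0.1 µM melatonin the values of Sdhc were 0.46, 0.24 and -0.25, and none passed. Each call was close to the threshold and was lost without any 1 of the 6 libraries at 100 µM (adjusted p of 0.0728 to 0.129) and without 4 of the 6 at 10 µM.

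**Figure D3:**
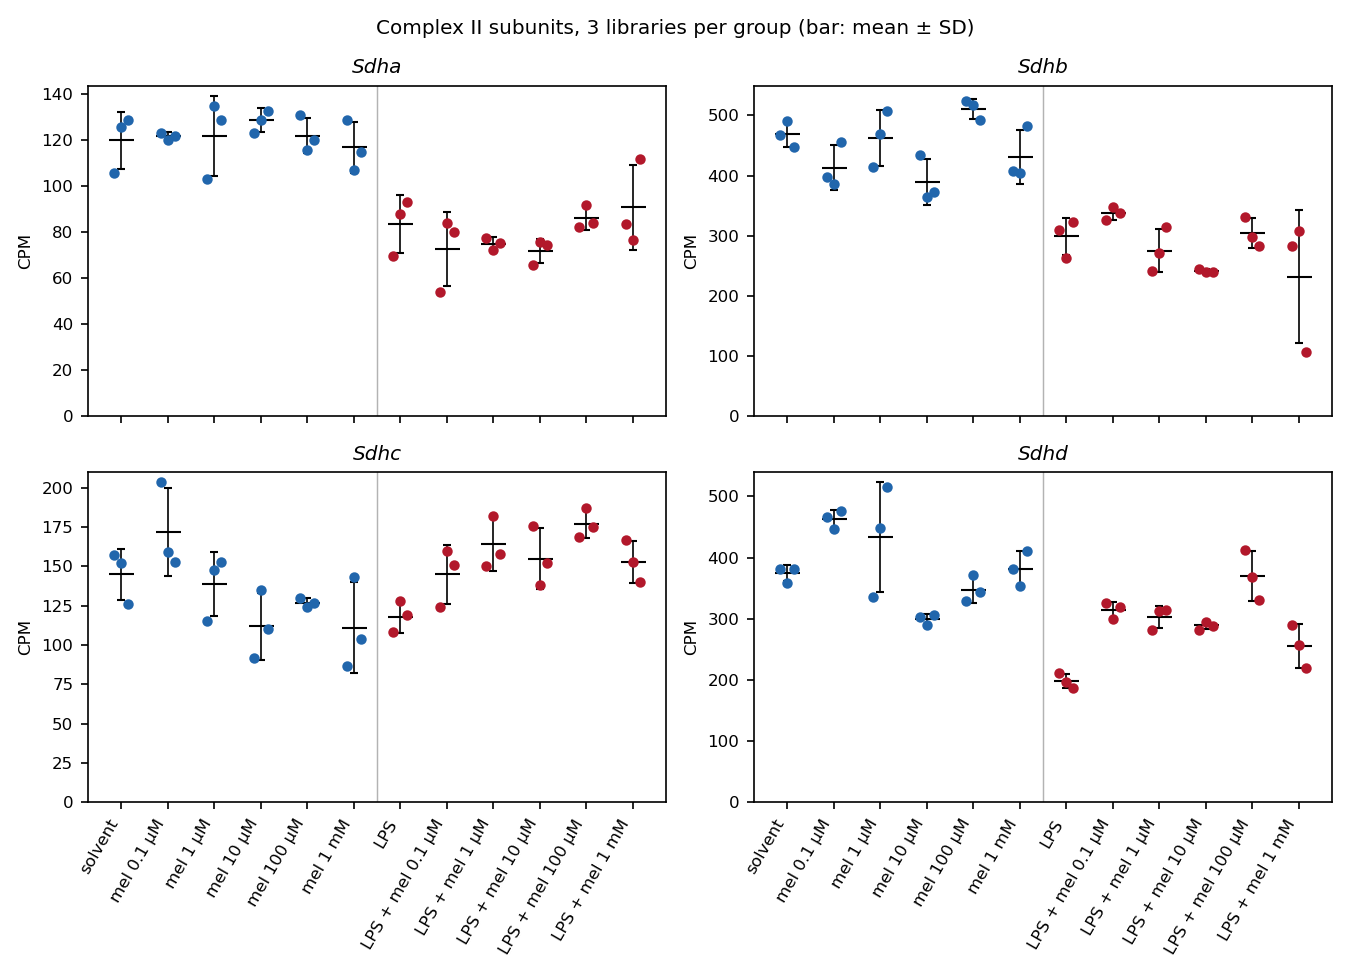
CPM of the 4 complex II genes in each of the 36 libraries, blue without and red with LPS, with mean ± SD per group (n = 3). Sdhb libraries with LPS all lie below 364 CPM, the lowest without LPS, whereas Sdhd is lowest in the 3 libraries with LPS alone (187 to 211 CPM).

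Outside complex II, Ndufa6 ranged from 301 to 635 CPM without LPS (median 457) and from 115 to 358 CPM with LPS (median 293). It fell in 5 comparisons, by -0.84, -1.12, -0.77, -0.71 and -0.77 without melatonin and with 1 mM, 100, 10 and 1 µM, and was -0.01 with 0.1 µM. At that dose the cells without LPS were at 367, 301 and 316 CPM, beside 445 to 571 CPM as means of the other 5 groups without LPS. Ndufa6 at 1 mM was -0.78 without replicate 3 of LPS with 1 mM melatonin (115 CPM beside 296 and 346). Cox7a2l fell without melatonin (-0.55) and with 1 mM (-0.75), 10 µM (-0.44) and 1 µM (-0.54), and was -0.24 and -0.13 at 100 and 0.1 µM. The 10 µM call of Cox7a2l was lost without any 1 of 5 of its 6 libraries.

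With 1 mM melatonin in both groups, Atp5c1 (-1.08), Uqcrb (-0.63), Ndufa13 (-0.66) and Cox4i1 (-0.41) also fell with LPS. Without replicate 3 of LPS with 1 mM melatonin, Uqcrb was -0.29 (adjusted p = 0.106), Ndufa13 -0.41 (0.262) and Cox4i1 -0.28 (0.202), and none of the 3 passed. Atp5c1 (-0.82, adjusted p = 0.00611), Cox7a2l (-0.53, 0.00121) and Sdhd (-0.48, 0.0109) passed without it. Without replicate 3 of 1 mM melatonin Ndufa13 missed the threshold (-0.46, adjusted p = 0.236), and Cox4i1 did so without replicate 1 or 2 of that group (0.0646 and 0.123). In the fit to these 2 groups alone 0 members passed. Summed macrophage markers were 5173.9 to 11972.3 CPM with 1 mM melatonin and 3572.6 to 4557.9 CPM with LPS added, and their part in these values was not tested.

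Ndufb10, an accessory subunit of the membrane arm, fell with 10 µM (-0.72, with libraries that overlapped), 1 µM (-0.73) and 0.1 µM (-0.86). The call at 10 µM was lost without any of 4 single libraries (adjusted p of 0.0776 to 0.326), and that at 0.1 µM without replicate 3 of either group (0.0708 and 0.0755). That at 1 µM was lost without any of 5 single libraries (0.0545 to 0.205). Ndufaf1, an assembly factor that builds the membrane arm, fell with 10 µM from 77.1 ± 5.97 to 37.7 ± 9.59 CPM and with 1 µM from 51 ± 25.3 to 29.9 ± 3.71 CPM. In the latter group without LPS its libraries were at 80.1, 33.9 and 39.1 CPM, and the first of these is the 1 µM library that stands apart. Without it Ndufaf1 was -0.29 at 1 µM and did not pass (adjusted p = 0.547). Atp5a1, the alpha subunit of the ATP synthase head, fell by 0.37 on the log2 scale at both 100 and 10 µM, and lay between -0.25 and -0.37 in all 6 comparisons. Members that fell in 2 comparisons also included Ndufv1, Ndufa8, Uqcr10 and Atp5c1. The 1 µM call of Ndufv1 (-1.40) was lost without replicate 1 of 1 µM melatonin (-1.34, adjusted p = 0.077). It was also lost without replicate 2 or 3 of LPS with 1 µM melatonin (0.19 and 0.175). Ndufs1, called only at 1 µM (-0.59), was -0.51 without that replicate 1 and did not pass (adjusted p = 0.13). The call of Ndufab1 at 0.1 µM (-1.38 ± 0.462) depended on how copies were counted: with the reads of Ndufab1-ps added it was -0.13.

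Uqcrq, a small subunit of complex III that contacts cytochrome b, rose in 3 of the 6 comparisons, more than any other member. Its libraries ran from 69.4 to 121 CPM without LPS (median 102.5) and from 112 to 188 CPM with LPS (median 134.5), with an overlap between 112 and 121 CPM. It rose with 100 µM (0.65 ± 0.162, adjusted p = 0.00321), 0.1 µM (0.52 ± 0.162, adjusted p = 0.0213) and 1 µM melatonin (0.48 ± 0.162, adjusted p = 0.0366). Without melatonin (0.36) and with 1 mM (0.28) and 10 µM (0.33) it did not pass. Its call at 1 µM was lost without any of 5 single libraries (adjusted p of 0.0505 to 0.184). That at 100 µM was lost without replicate 2 of melatonin alone (adjusted p = 0.0634), and that at 0.1 µM without replicate 1 of LPS with melatonin (0.257) or replicate 2 of melatonin alone (0.124). Besides Uqcrq and Sdhc, 3 members rose, each in 1 comparison. Ndufa12 rose at 0.1 µM (0.60), Atp5f1, the peripheral stalk subunit b, at 100 µM (0.43) and Ndufb6 at 100 µM, where it went from 0.509 ± 0.487 to 4.89 ± 1.42 CPM. The calls of Atp5f1 and Ndufb6 were each lost without any 1 of their 6 libraries. Atp5f1 lies opposite Wdr77 over 731 bases.

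Sequence was set beside these results for 4 of the 5 members that fell in at least 4 of the 6 comparisons, chosen after their values were seen. Sdha is left out because only 32 bases before its start are free of annotated exons. RefSeq promoter sequences (GRCm38.p6, 250 bases before to 50 after the start) were matched by symbol for 74 of the 92 members. Shown are stretches before the RefSeq start of Sdhd, Sdhb, Ndufa6 and Cox7a2l that are free of annotated exons, 5′ to 3′ on the gene's strand, with motif letters in capitals.
Sdhd, chr9:50603850-50603909, minus strand: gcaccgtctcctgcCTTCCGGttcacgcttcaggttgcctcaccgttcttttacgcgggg
Sdhb, chr4:140961071-140961202, plus strand: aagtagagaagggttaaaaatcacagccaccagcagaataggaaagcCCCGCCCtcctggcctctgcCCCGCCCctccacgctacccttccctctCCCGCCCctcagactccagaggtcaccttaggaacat
Ndufa6, chr15:82354323-82354491, minus strand: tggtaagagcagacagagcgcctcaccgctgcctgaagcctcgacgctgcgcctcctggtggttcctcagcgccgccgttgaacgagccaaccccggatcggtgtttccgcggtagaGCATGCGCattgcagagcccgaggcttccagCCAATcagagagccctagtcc
Cox7a2l, chr17:83514334-83514533, minus strand: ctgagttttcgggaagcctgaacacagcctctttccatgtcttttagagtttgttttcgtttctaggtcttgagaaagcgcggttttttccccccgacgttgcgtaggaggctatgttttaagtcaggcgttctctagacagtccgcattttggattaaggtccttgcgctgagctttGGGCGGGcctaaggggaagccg

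Distances are from the RefSeq start, which differs from the outer gene end given above. For Cox7a2l it lies inside the gene, downstream of the outermost annotated start. For Sdhb and Ndufa6 it lies 68 and 31 bases beyond the end of the stretch shown, past annotated exon sequence, and for Sdhd it lies just upstream of the annotated gene and was not found in an annotated transcript. Capitals mark CTTCCGG, the reverse complement of the ETS-type motif CCGGAAG bound by GABPA, 46 bases before the start of Sdhd. They mark CCCGCCC, the reverse complement of the GC box GGGCGGG, 153, 133 and 105 bases before the start of Sdhb, and GGGCGGG 22 bases before that of Cox7a2l. In Ndufa6 they mark GCATGCGC, the core of the NRF1 motif, 83 bases before the start, and CCAAT 52 bases before it. Sdhb also holds GCATGCGC 54 bases and the reverse complement of CCAAT 9 bases before its start, in the exon sequence not shown. Motifs were searched on both strands in the whole 300 bases of the 74 members and of 17492 protein-coding genes. The full palindromic NRF1 motif was in 9.5% of members and 1.5% of all genes, and its core GCATGCGC, which overlaps it and was added after the sequences were read, in 16.2% and 3.9%. CCGGAAG was in 24.3% and 12.9%, the YY1 motif AAGATGGC in 13.5% and 3.6%, GGGCGGG in 35.1% and 36.9%, and CCAAT in 44.6% and 42.3%. A pair of NF-kB motifs was in 0 of 74 members, and in 0.1% and 0.2% of all genes. A match is a run of letters and not a measured binding site.

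Added together, the members took 0.994% to 1.148% of all counts in the 18 libraries without LPS and 0.757% to 0.933% in the 18 with LPS, ranges that did not meet and that use no scaling. After TMM scaling the ranges did overlap, at 9469.3 to 11512.6 summed CPM without LPS and 6800.2 to 9812.3 with LPS. Group means of the summed CPM were 10937.7 ± 501.6 in solvent, 8601.7 ± 550.2 with LPS and 8101.1 ± 1131 to 9442.3 ± 327.3 with LPS and melatonin (SD, n = 3). In bulk samples, fewer cells and less RNA per cell cannot be told apart. The sum is carried by few genes: Atp5g3, Uqcrb and Cox8a held 38.9% of it and the 10 highest members 68.8%. By complex, the sums of complex I did not overlap between the 18 libraries with LPS (1147.5 to 1408 CPM) and the 18 without (1453.7 to 1885). Their medians were 1287.2 and 1661.2 CPM, of which Ndufa6 alone had medians of 293 and 457 CPM. Only 5 of 37 complex I subunits were called for LPS against solvent. How often sums of other gene sets part in this way was not counted, so this is not read as particular to complex I. For complex II, with LPS at 576.5 to 994.5 CPM and without at 918.2 to 1303.4, they overlapped, as they did for complexes III (837.1 to 1716.3 and 1339.6 to 1902), IV (1543.7 to 2535.4 and 2413 to 3060.9) and V (2361.3 to 3260.9 and 2779 to 3645.6). The assembly factors covered 106.7 to 201 CPM with LPS and 120.9 to 236.8 without.

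**Figure D4:**
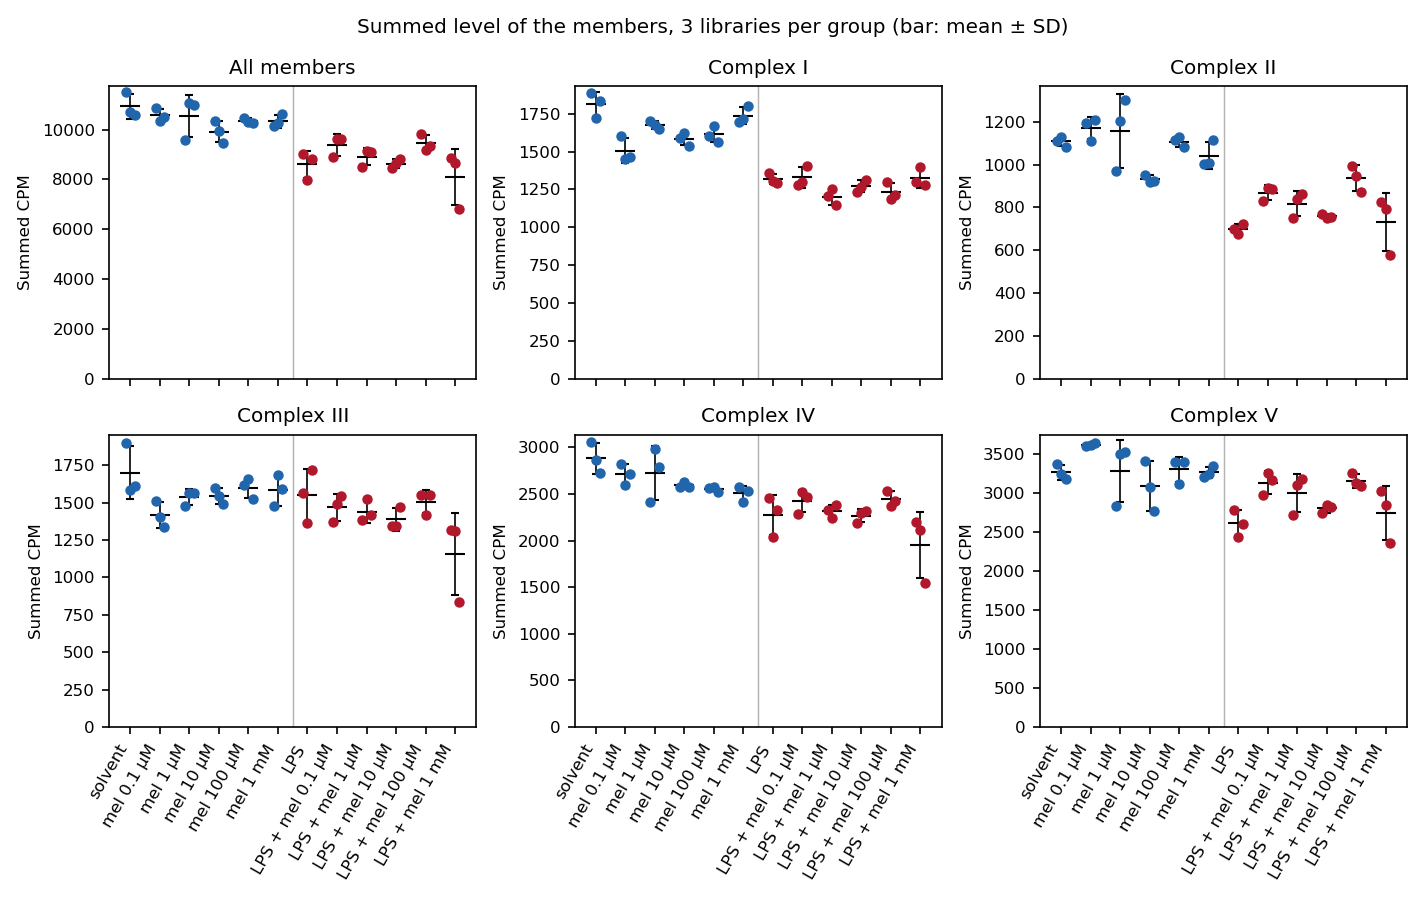
Summed CPM of all members and of each complex in the 36 libraries, blue without and red with LPS, with mean ± SD per group (n = 3). For complex I no red point reaches the lowest blue one (1453.7 CPM), and the lowest red point of all members (6800.2 CPM) is replicate 3 of LPS with 1 mM melatonin.

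Melatonin alone was compared with solvent at each dose, 5 comparisons that share the 3 solvent libraries. With edgeR, 0 of 86 members passed at 1 mM, 100, 10, 1 or 0.1 µM, where 0.418%, 0.0824%, 0.0824%, 0.147% and 0.341% of all genes passed. At an unadjusted p under 0.05 there were 5, 2, 6, 2 and 8 members (5.81%, 2.33%, 6.98%, 2.33% and 9.3%, beside 10.8%, 5.97%, 6.82%, 8.29% and 9.3% of all genes), and DESeq2 called 0, 0, 0, 0 and 3. The members' medians were -0.09, -0.08, -0.10, -0.03 and -0.01. Ndufa6 at 0.1 µM came closest (-0.80 ± 0.196, adjusted p = 0.0563), with 367, 301 and 316 CPM against 623, 536 and 554 CPM in solvent and no overlap. It is named here after its values were seen, as are the other members of this paragraph. Ndufaf1 (-0.90, adjusted p = 0.11) and Atp5f1 (0.49, adjusted p = 0.193) at this dose did not pass. Sdhd was at 467, 447 and 476 CPM at 0.1 µM against 381, 359 and 382 CPM in solvent (0.31, adjusted p = 0.416).

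Cells given melatonin before LPS were compared with cells given LPS alone, 5 comparisons that share the 3 LPS libraries. At 100, 10, 1 and 0.1 µM, 1 member was higher each time and 0 lower, and it was Sdhd each time. Of all genes, 0.636%, 0.194%, 0.294% and 0.653% were higher, 0.547%, 0.177%, 0.318% and 0.706% were lower and 1.18%, 0.371%, 0.612% and 1.36% passed in either direction. The log2 fold changes of Sdhd were 0.90 ± 0.127 (adjusted p = 2.86e-05), 0.54 ± 0.127 (0.0368), 0.61 ± 0.127 (0.00765) and 0.67 ± 0.127 (0.00254), in the order 100, 10, 1 and 0.1 µM. Every one of these 12 libraries (282 to 412 CPM) lay above the 3 LPS libraries (187 to 211 CPM), whose low values enter all 4 comparisons. With 1 mM it was at 290, 257 and 219 CPM and did not pass (0.36 ± 0.127, adjusted p = 0.0708). The calls at 100 and 0.1 µM held under all alternatives tried (adjusted p up to 0.00137 and 0.0378). At 10 µM the call was lost without any 1 of the 6 libraries (0.0769 to 0.198), and at 1 µM without replicate 2 or 3 of LPS (0.0516 and 0.0813) or of LPS with melatonin (0.0535 and 0.0707).

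At 1 mM with LPS, 4 members were lower than with LPS alone and 0 higher, where 4.71% of all genes were lower and 2.84% higher (7.55% in either direction). Uqcrb, a complex III subunit that binds ubiquinone, was at 1145, 976 and 1302.4 CPM with LPS and 904, 880 and 331 CPM with 1 mM melatonin added (-0.69 ± 0.176, adjusted p = 0.00751). Ndufa13, a complex I subunit also known as GRIM-19, was at 128, 108 and 123 CPM and 77.5, 89.9 and 44.1 CPM (-0.76 ± 0.203, adjusted p = 0.0125). Cox4i1, the main isoform of the regulatory subunit of complex IV, was at 697, 530 and 672 CPM and 527, 523 and 390 CPM (-0.40 ± 0.127, adjusted p = 0.0425). For these 3 genes the last value is replicate 3 of LPS with 1 mM melatonin, and it is the lowest of its group each time. Without that library Uqcrb was -0.36 and passed (adjusted p = 0.0404), Ndufa13 was -0.51 (0.141) and Cox4i1 -0.27 (0.244). Without replicate 3 of LPS Uqcrb missed the threshold (0.0634), Cox4i1 also without replicate 1 or 3 of LPS (0.234 and 0.183), and Ndufa13 without replicate 1 of LPS (0.0532). In the fit to the 2 compared groups alone, 0 members passed. In this comparison the sum of the macrophage markers also moved, from 13149 to 13311.9 CPM with LPS to 3572.6 to 4557.9 CPM with 1 mM melatonin added. Single markers are given for another test, the difference between the LPS responses with and without 1 mM melatonin. That difference also uses the groups with solvent and with 1 mM melatonin alone. In it the markers did not all go one way. Adgre1 (-2.25), Ptprc (-1.15) and Cd14 (-0.98) passed as lower, and Fcgr3 (1.27) passed as higher. Lyz2 (-1.44), Itgam (-1.08), Cd68 (0.54), Spi1 (0.58), Tyrobp (0.30) and Csf1r (0.30) did not pass. The part of the markers in the result was not tested.

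The fourth gene was Cox6a2, the heart and muscle isoform of subunit VIa (chromosome 7, 128205435 to 128206387, minus strand), present at low level. It was at 6.37, 5.24 and 9.71 CPM with LPS and at 0, 0 and 0.998 CPM with 1 mM melatonin added, 5 counts over that group (-4.51 ± 1.09, adjusted p = 0.00505). With 1 mM melatonin alone it was at 3.32, 6.35 and 14.1 CPM, so that LPS lowered it there (-4.66 ± 1.1, adjusted p = 0.00268), and in solvent at 3.57, 2.36 and 1.95 CPM. The difference between the LPS responses with and without 1 mM melatonin was -6.09 ± 1.41 (adjusted p = 0.0112), the only member past the threshold for that difference, where 1.06% of all genes passed with a lower value and 1.69% in either direction. Elsewhere its libraries scattered between 0.554 and 19.7 CPM. Cox6a2 lies wholly within Itgad on the opposite strand, a gene with 29 counts against 1284 for Cox6a2 over the 36 libraries. The summed muscle markers were 0 to 0.432 CPM in the libraries with LPS and 1 mM melatonin, 0 to 0.154 CPM with LPS alone, 0 to 3.57 CPM in solvent and 0 to 7.9 CPM with 1 mM melatonin alone, the widest range of any group, and their part in these values was not tested. Without replicate 3 of 1 mM melatonin (14.1 CPM) the LPS response of Cox6a2 there was -3.95 (adjusted p = 0.019) and the difference -5.38 (0.0374).

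**Figure D5:**
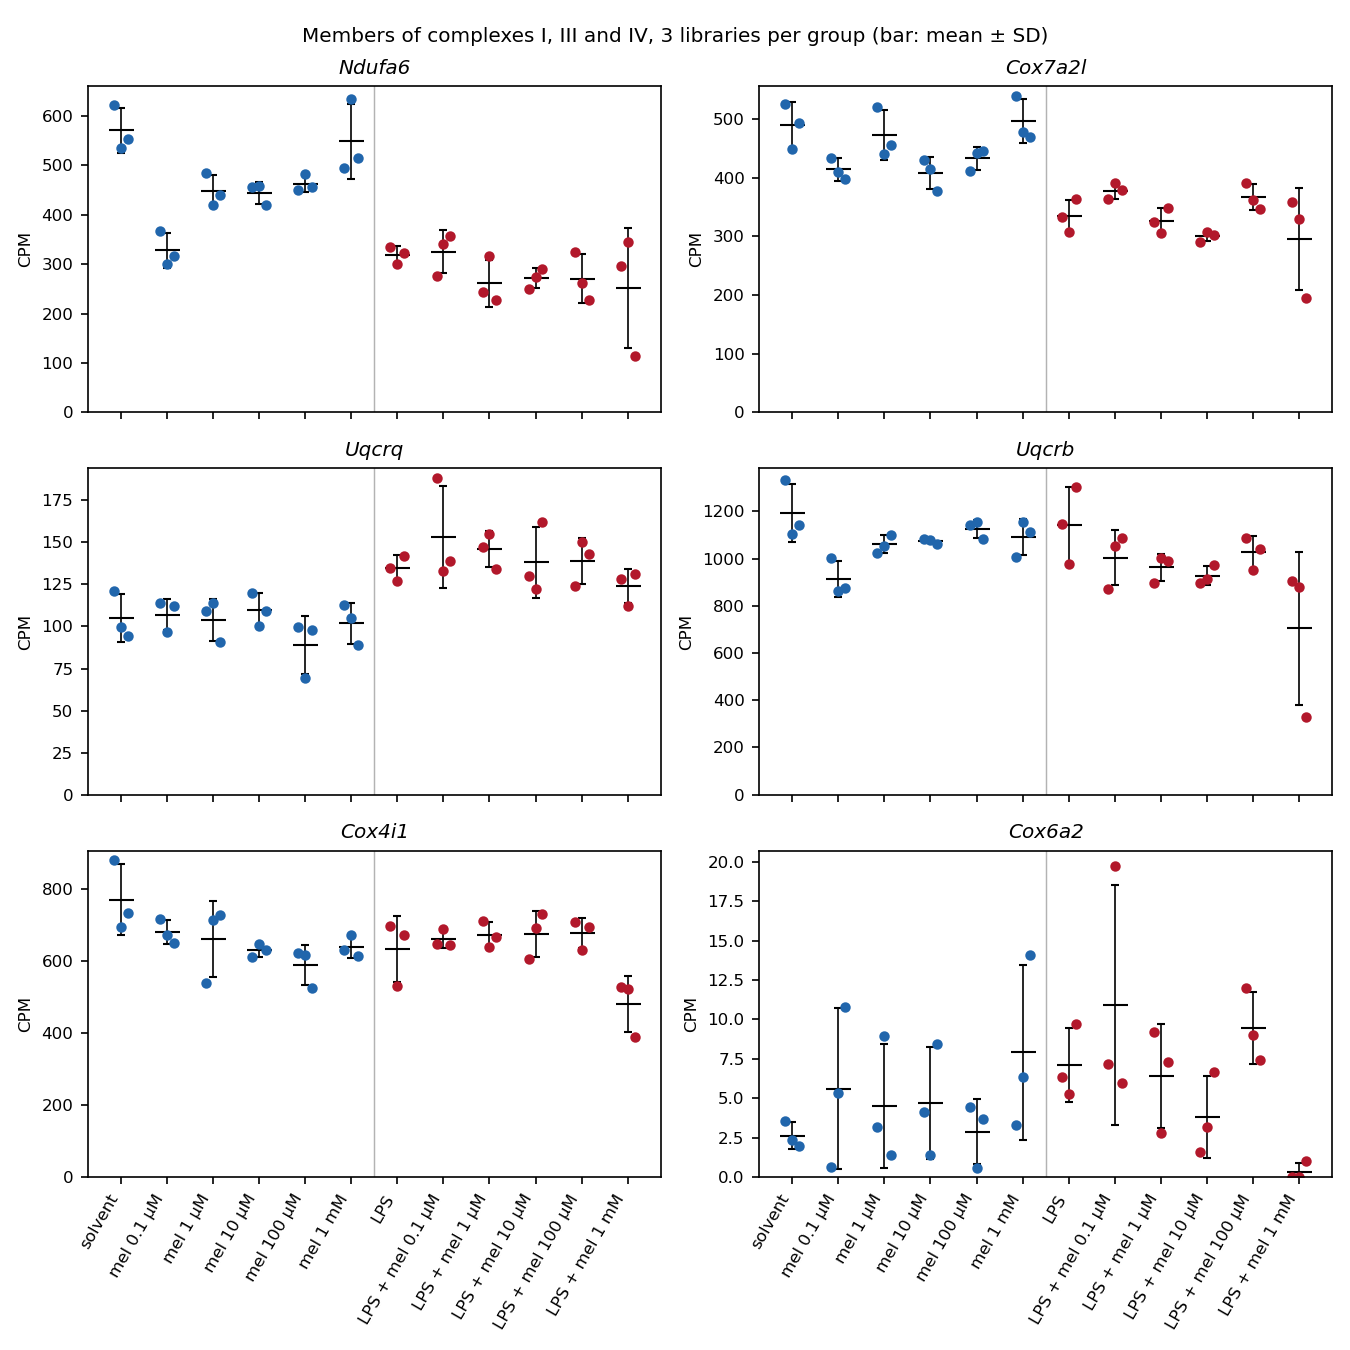
CPM of 6 members of complexes I, III and IV in each of the 36 libraries, blue without and red with LPS, with mean ± SD per group (n = 3). Ndufa6 and Cox7a2l are lower and Uqcrq higher in most red libraries, Uqcrb and Cox4i1 are lowest in 1 library of LPS with 1 mM melatonin (331 and 390 CPM), and Cox6a2 is at 0, 0 and 0.998 CPM in that group.

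Tissue- or stimulus-linked isoforms were low beside their common partners. A low listed level does not by itself mark such an isoform. Cox5a and Cox6c, which are not tissue-linked, averaged 3.91 and 5.55 CPM over the 36 libraries, beside 5.53 CPM for Cox6a2. Cox4i2, the oxygen-regulated partner of Cox4i1, had counts in 9 of 36 libraries, up to 2.78 CPM. Ndufa4, now assigned to complex IV, was at 16.3 ± 2.53 CPM in solvent and 14.8 ± 7.61 CPM with LPS, while its relative AA467197, known to be induced in activated macrophages, had 15 counts in 1 of 36 libraries. Ndufa4l2, the hypoxia-induced relative, reached at most 1.5 CPM. For subunit c of ATP synthase, Atp5g3 stood at 1915.5 ± 81.1 CPM in solvent beside 32.5, 33.8 and 48.8 CPM for Atp5g2 and 1.36, 7.54 and 9.14 CPM for Atp5g1.

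Genes that act with the chain were read from lists outside the naming rule, beside the 8.4% of all genes that rose and 8.09% that fell with LPS. None of the counts below is read as particular to its list. With LPS against solvent, 0 of 7 tested carriers and further subunits (such as Cycs, cytochrome c, and Cyc1, cytochrome c1) passed, 0 of 11 further complex I assembly factors and 0 of 12 assembly factors of complexes II, III and V. Of 20 complex IV assembly factors Coa5 rose (0.49) and Cmc2 fell (-1.58). Of 13 regulators of mitochondrial biogenesis 1 fell, Ppargc1b (-1.34), a coactivator of these genes. Of 18 genes of the tricarboxylic acid cycle and pyruvate dehydrogenase, Dld rose (1.19), and Fh1 (-0.68), the fumarase next after complex II in the cycle, and Idh2 (-0.84) fell. Of 77 mitochondrial ribosome genes 1 rose and 5 fell, and of 21 carriers and import genes Vdac3 rose (0.57) while Ucp2 (-0.83) and Vdac1 (-0.69) fell. The calls of Coa5, Idh2 and Vdac3 were lost without 1 or more single libraries.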

How the data were processed

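RNA of RAW 264.7 cells was extracted with Trizol and made into Illumina TruSeq libraries, per the labels' protocols. The deposited gene table of counts holds whole numbers per gene, which the authors made from mm10 alignments. The submitters' processing notes name cutadapt and featureCounts. The aligner, the annotation, the strand setting and tool versions are not given in the sources used here. The deposited FPKM values are the authors' own normalization and served only to compare levels between genes. Their depth is that of the counts.

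Counts were fitted with edgeR 4.0.16 (R 4.3.3, limma 3.58.1): filterByExpr over the 12 groups, TMM scaling, 1 mean per group over all 36 libraries, quasi-likelihood tests and Benjamini-Hochberg adjustment over 16988 genes. SE is the size of the log2 fold change divided by the square root of F. The procedure was tested on simulated data. Alternatives were DESeq2 1.42.0, RLE scaling, no filter, only the compared groups, a replicate block, protein-coding genes only, pseudogene reads added, and leaving out libraries. Genes named were up to 5 called members per complex in the main comparisons, the 8 smallest adjusted p or fewer in the others, the highest and lowest members by FPKM, isoform sets and up to 4 genes per partner list; others named were chosen after their values were seen. Members and lists were chosen with earlier results of these data known. Sequences are from RefSeq (GRCm38.p6) and positions from GENCODE M21 on mm10. Figures used matplotlib 3.10.9. Counts cover all members, and 1 member is not reported here by name.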

Additional observations from a re-analysis of the deposited data

Results flagged for a closer look

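The LPS response of Cox6a2 differed between cells with and without 1 mM melatonin by -6.09 on the log2 scale (edgeR adjusted p = 0.0112), a test of the difference itself. The libraries of LPS with 1 mM melatonin were at 0, 0 and 0.998 CPM and those of 1 mM melatonin alone at 3.32, 6.35 and 14.1 CPM. The last of these stands apart from its group in other measures, and without it the value was -5.38 (adjusted p = 0.0374). In the fit to the compared groups alone the value was -6.07 with an adjusted p of 0.0604. Without replicate 3 of LPS with 1 mM melatonin both remaining libraries of that group are at 0, so no fold is given.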

How the results depend on the processing

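Among the named genes, no value that passed in the main fit or in the alternative changed direction. Changes of sign in values that passed in neither were not counted. Counts of called members moved by over 1.5 times as follows. Without a filter on low counts the LPS responses with 0.1, 1, 10 and 100 µM melatonin held 5, 9, 4 and 4 members, LPS with 10 µM against LPS 0 and melatonin 0.1 µM against solvent 1. In fits to only the compared groups the LPS response with 1 mM held 0, LPS with 1 mM against LPS 0, the interaction 0, the LPS response with 0.1 µM 13, LPS with 0.1 µM and 100 µM against LPS 2 and 4, and melatonin 0.1 µM 4. DESeq2 called 2 for the interaction, 2 and 2 for LPS with 0.1 µM and 100 µM against LPS, and 3 for melatonin 0.1 µM. RLE scaling called 1 for melatonin 0.1 µM. Protein-coding genes only gave 0 for LPS with 10 µM against LPS and 1 for melatonin 0.1 µM. The cause was not tested. The replicate numbers did not pair the libraries: same-numbered residuals correlated at -0.002 on average (-0.041 to 0.05). With the replicate block, LPS with 10 µM against LPS held 0 members, and the LPS response with 100 µM held 8.

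Leaving out each library in turn gave 8 to 14 members for LPS against solvent. For the LPS responses it gave 7 to 11 (1 mM), 4 to 6 (100 µM), 4 to 7 (10 µM), 7 to 11 (1 µM) and 3 to 6 (0.1 µM). Melatonin alone gave 0 to 0 at each dose. LPS with melatonin against LPS gave 2 to 5 (1 mM), 1 to 1 (100 µM), 0 to 0 (10 µM), 0 to 1 (1 µM) and 1 to 1 (0.1 µM), and the interaction 1 to 2. With a library left out, fewer samples enter each fit. Sdhd, Ndufa6, Cox7a2l, Atp5c1, Uqcrh and Ndufb5 passed for LPS against solvent under every alternative run. Members under about 10 CPM, such as Cox6a2 and Ndufb6, are limited by depth.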
